A study of Mus musculus with 10 samples.

Results

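MHC class II molecules present peptides from engulfed protein to CD4+ T cells. The 7 genes described here are H2-Aa, H2-Ab1, H2-Eb1, H2-DMa, H2-DMb1, Cd74 and Ciita. They were picked by name from the 40690 genes of a polyadenylated RNA sequencing count table, and all 7 were found in it and passed the filter on low counts. The table compares ventricles of 5 naive mice, which had no surgery, with ventricles of 5 sham-operated mice. All 10 mice were C57BL/6 males aged 10 weeks with no engineered allele named in the labels, and the labels used here do not give the time between the operation and collection. The samples are whole ventricles, so that fewer cells of a type and less RNA per cell cannot be told apart in any value below. Each library is taken as a separate heart, as the series text counts 5 hearts in each group.

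In a class II molecule an alpha and a beta chain together form the peptide groove. The invariant chain fills that groove until lysosomal proteases trim it in the endosome, and the H2-DM heterodimer then helps to exchange its remnant for antigenic peptide. Transcription of the whole group is driven by the coactivator CIITA, which binds no DNA itself and is recruited by RFX, CREB and NF-Y proteins to the X and Y boxes of class II promoters; interferon gamma is a classical inducer of Ciita. In the heart, class II is known chiefly from macrophages, dendritic cells and B cells.

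H2-Aa and H2-Ab1 encode the alpha and beta chains of I-A, and H2-Eb1 encodes the beta chain of I-E, whose alpha chain gene is defective in C57BL/6 mice. In GRCm38 these genes lie in the major histocompatibility complex, H2-Aa at chr17:34282744-34287823 on the minus strand, H2-Ab1 at chr17:34257689-34269419 and H2-Eb1 at chr17:34305867-34316674 on the plus strand. H2-DMa (chr17:34119541-34139101) and H2-DMb1 (chr17:34153072-34160230), the chains of the peptide exchange factor, lie on the plus strand of the same region. Ciita, the coactivator, is at chr16:10480059-10528418 on the plus strand, and Cd74, the invariant chain, also lies outside the complex. Libraries were not strand-specific, so reads of the 10.4% of H2-DMa exon bases that overlap Brd2 on the other strand, and of the 3.45% of Ciita exon bases that overlap Dexi, cannot be told apart from those genes. Of the 50-base stretches of H2-DMb1 transcripts, 27.2% also occur in H2-DMb2, and reads from them could have been split or dropped in counting.

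Letters of the promoter elements through which the coactivator acts were found in RefSeq promoters (GRCm38.p6) of 4 of these genes. Stretches of 3 of them are printed from 5′ to 3′ on the gene's own strand. Promoters were listed there for 4 of the 7 genes, H2-Aa, H2-Eb1, H2-DMa and H2-DMb1. Capitals mark the Y box core ATTGG in H2-Aa and H2-Eb1, the X box core (GNAAC followed directly by NGATG) in H2-Eb1 and H2-DMb1, and the cyclic AMP response element TGACGTCA in H2-Aa.
H2-Aa, chr17:34287847-34287917: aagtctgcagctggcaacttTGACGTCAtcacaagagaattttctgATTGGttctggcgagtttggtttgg
H2-Eb1, chr17:34305756-34305832: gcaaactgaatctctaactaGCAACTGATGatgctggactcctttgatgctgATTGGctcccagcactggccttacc
H2-DMb1, chr17:34153087-34153116: ggtttacctaGTAACTGATGatgctaggct
The X box core began 91 bases before the start site of H2-Eb1 and 94 bases before that of H2-DMb1, and the Y box followed after a gap of 22 bases in H2-Eb1 and 23 in H2-DMb1, outside the printed stretch of the latter. In H2-Aa the response element began 74 bases before the start site and the Y box 48 bases before it. Among the 32851 promoters searched on both strands over the 250 bases before the start site, 0.682% held the X box core, 33.8% held ATTGG and 1.55% held TGACGTCA. An X box core followed by a Y box 15 to 30 bases on, on the gene's strand, was found in 4 promoters, those of H2-Eb1, H2-DMb1, H2-Eb2 and BC051142. The motifs were chosen after the sequences were seen, so finding H2-Eb1 and H2-DMb1 among these is no independent support. The start site that RefSeq gives for H2-DMb1 lies 119 bases inside the gene as GENCODE places it, so the printed H2-DMb1 stretch is within the gene coordinates above. Neither the H2-Aa promoter nor either H2-DMa promoter listed held the X box core as spelled above. No other spelling of the X box was searched, so these promoters cannot be said to lack one. Of the 2 H2-DMa promoters, 1 held ATTGG, 198 bases before its start site. A match is only a match of letters.

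Libraries held 9683181 to 17577906 counts in the naive group and 10654107 to 21537135 in the sham group. Levels are given as CPM, counts scaled to a common library size by the trimmed mean of M-values (TMM). Differences are log2 fold changes of sham against naive from edgeR's quasi-likelihood test, with their standard errors (SE) and p-values adjusted by the Benjamini-Hochberg method over 13622 genes, and a gene passed at an adjusted p under 0.05. Over all tested genes 17.2% were higher and 15.5% lower in sham hearts, the median log2 fold change was -0.05, and 13.6% had every sham library above every naive library, 9.18% below.

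All 7 class II genes had a higher mean in sham hearts, by log2 fold changes of 0.36 to 0.96 with a median of 0.53. The difference passed the test for 4 of them, H2-DMb1, Ciita, H2-DMa and H2-Ab1, or 4 of 7 beside the 17.2% of all genes called higher, and none was lower. In 0 of 7 did every sham library lie above every naive library, or below it, beside 13.6% and 9.18% of all genes. H2-Aa, H2-Eb1 and Cd74 did not pass.

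**Figure D1:**
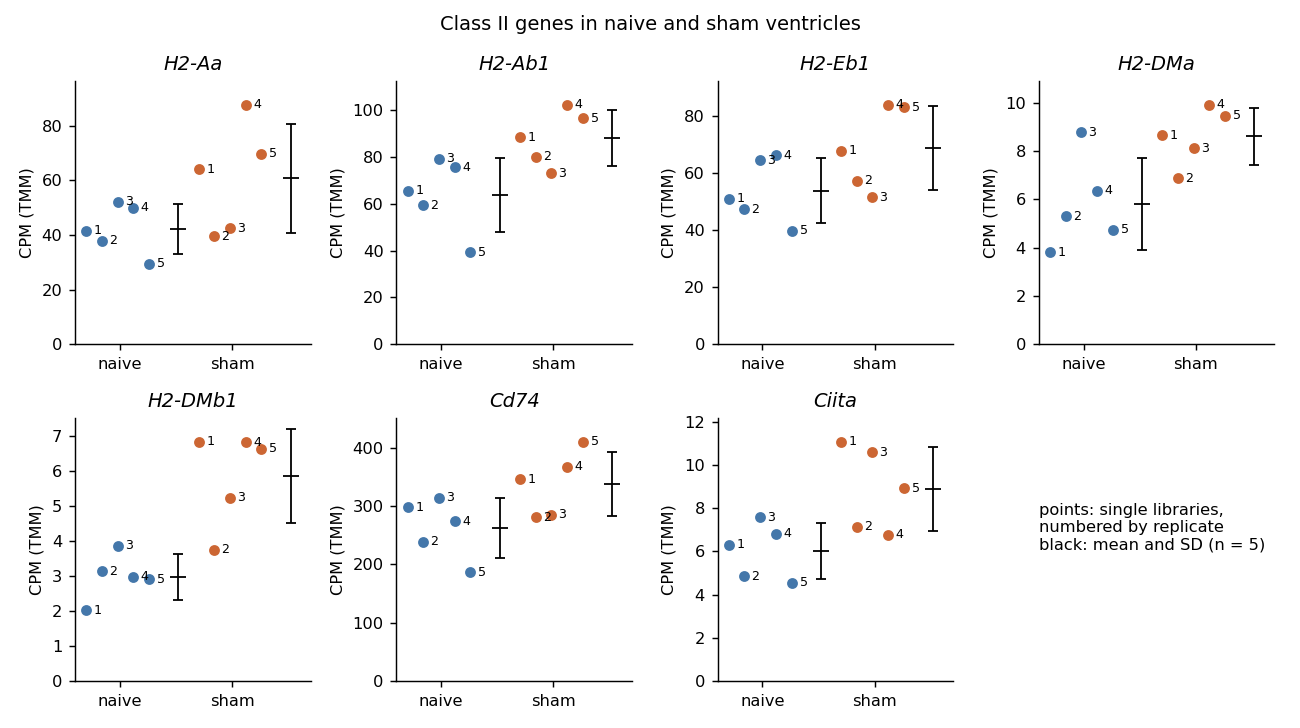
CPM of the 7 class II genes in each library (points numbered by replicate, naive in blue and sham in orange), with the group mean and SD (n = 5) in black on linear axes from 0. The groups overlap in every panel, and H2-DMb1 has 4 of its 5 sham libraries above the highest naive library.

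H2-Ab1, the I-A beta chain gene, read 65.7, 59.4, 79.2, 75.6 and 39.2 CPM in naive hearts 1 to 5 and 88.4, 80.1, 73.1, 102 and 96.5 CPM in sham hearts 1 to 5. Only sham 3 lay inside the naive range, below naive 3 and naive 4. Its mean rose from 63.8 ± 15.9 to 88.1 ± 11.8 CPM (SD, n = 5 each), a log2 fold change of 0.47 ± 0.16 (SE) with an edgeR adjusted p of 0.0337. This call did not hold without naive 1, naive 2, sham 1, sham 4 or sham 5, each left out in turn (adjusted p of 0.0567 to 0.0727). Nor did it hold with a GC correction (0.0566), with the replicate number as a block (0.0643), with both (0.104) or in limma voom (0.0939).

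H2-Aa, its partner, read 41.5, 37.8, 52.1, 49.9 and 29.5 CPM in naive hearts 1 to 5 and 64.1, 39.6, 42.4, 87.5 and 69.7 CPM in sham hearts 1 to 5. Sham 1, 4 and 5 lay above every naive heart, while sham 2 and sham 3 lay among the naive values. The log2 fold change of H2-Aa was 0.53 ± 0.22 (SE), with an adjusted p of 0.0895. It came under the threshold with sham 2 left out (adjusted p 0.0225) and with sham 3 left out (adjusted p 0.0459).

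H2-Eb1 read 50.9, 47.3, 64.5, 66.1 and 39.7 CPM in naive hearts and 67.7, 57.2, 51.4, 83.8 and 83.0 CPM in sham hearts, in the order of their numbers. As for H2-Aa, sham 2 and sham 3 were inside the naive range and the other 3 sham hearts above it. The log2 fold change of 0.36 ± 0.16 (SE) did not pass, with an adjusted p of 0.104, though without sham 3 it did (adjusted p 0.0450).

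Of the peptide exchange factor, H2-DMb1 differed most between the groups among the 7 genes. It read 2.02, 3.14, 3.87, 2.98 and 2.90 CPM in naive hearts 1 to 5 and 6.84, 3.75, 5.23, 6.83 and 6.64 CPM in sham hearts 1 to 5. All sham hearts but sham 2 lay above the highest naive heart, and sham 2 lay just under naive 3. H2-DMb1 rose by a log2 fold change of 0.96 ± 0.20 (SE) with an adjusted p of 0.00169, and it passed with each library left out in turn.

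H2-DMa read 3.81, 5.29, 8.77, 6.35 and 4.74 CPM in naive hearts 1 to 5 and 8.66, 6.87, 8.12, 9.91 and 9.46 CPM in sham hearts 1 to 5. Naive 3 alone among the naive hearts reached the sham range; the other 4 lay below every sham heart. The log2 fold change of H2-DMa was 0.57 ± 0.19 (SE), with an adjusted p of 0.0291. The call did not hold without naive 1, naive 2, naive 5, sham 4 or sham 5 (adjusted p of 0.0551 to 0.0692), while without naive 3 the adjusted p was 0.00385. H2-DMa also missed the threshold with a GC correction (adjusted p 0.0674) and in limma voom, where its log2 fold change was 0.33 (adjusted p 0.148).

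Cd74 was the most abundant of the 7. It read 297, 239, 314, 274 and 186 CPM in naive hearts 1 to 5 and 346, 280, 285, 367 and 410 CPM in sham hearts 1 to 5. Sham 1, 4 and 5 exceeded every naive heart, and sham 2 and sham 3 did not. The log2 fold change of 0.37 ± 0.14 (SE) missed the threshold with an adjusted p of 0.0551. Leaving out naive 1, naive 3, sham 2 or sham 3 brought it under the threshold, with adjusted p of 0.0315 to 0.0438.

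Ciita had a different order among the sham hearts. It read 6.31, 4.86, 7.58, 6.82 and 4.55 CPM in naive hearts 1 to 5 and 11.1, 7.15, 10.6, 6.78 and 8.93 CPM in sham hearts 1 to 5. Sham 4, among the highest sham hearts for the other 6 genes, was the lowest for Ciita. The log2 fold change of Ciita was 0.57 ± 0.18 (SE), with an adjusted p of 0.0243, which rose to 0.0601 to 0.0695 without naive 2, naive 5, sham 1 or sham 3. Ciita is transcribed from several promoters of different cell type preference, and counts per gene do not separate them.

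The libraries within a group ranked much alike across the genes. Naive 5 was among the lowest 2 naive libraries for all 7 genes and naive 3 was the highest for 6. Sham 2 was among the lowest 2 sham libraries for all 7 genes and sham 3 for 6, whereas sham 4 was among the highest 2 for 6. Naive 1 was the shallowest library, and sham 4 had the most genes with a count, 24214 against 20235 to 22570 in the others. With both of these left out, H2-DMb1 (adjusted p 0.00613) and Ciita (adjusted p 0.0103) passed, and H2-Ab1 and H2-DMa did not (adjusted p 0.129 and 0.0823).

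**Figure D2:**
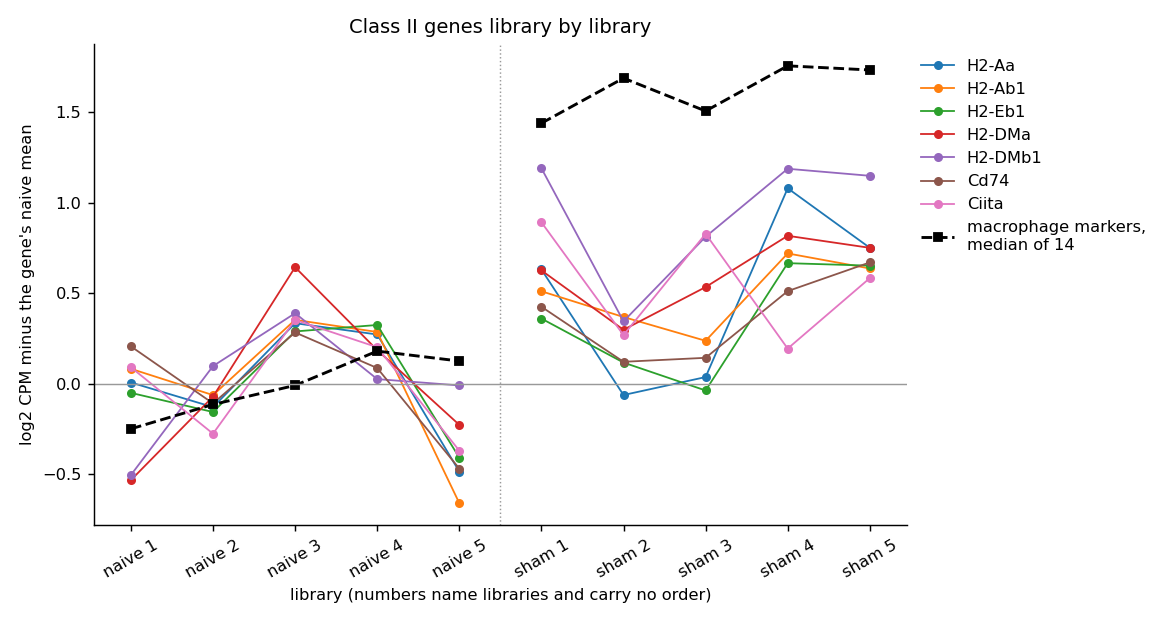
Log2 CPM of each class II gene (colours) and the median of 14 macrophage and monocyte markers (black dashes) in each library, as the difference from that gene's naive mean; lines join the values of a gene and imply no order of libraries. Sham 2 and sham 3 are low for most class II genes. The macrophage marker median is 1.44 to 1.76 in all 5 sham libraries, with 1.69 in sham 2, 1.51 in sham 3 and its lowest value in sham 1.

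Per kilobase of exon sequence of the protein-coding transcripts, the levels span a wide range. Mean naive levels were 185 CPM per kilobase for Cd74, 52.7 for H2-Ab1, 37.4 for H2-Aa and 29.9 for H2-Eb1. Those 4 genes kept that order in all 10 libraries, although the naive ranges of neighbouring H2-Ab1, H2-Aa and H2-Eb1 overlapped. This order rests on the lengths taken, 1212 bases for H2-Ab1, 1128 for H2-Aa and 1796 for H2-Eb1. Exons of all transcripts span 2568, 3798 and 1944 bases, over which H2-Eb1 would stand above H2-Ab1 in the naive mean. The exchange factor chains were far lower, at 2.17 CPM per kilobase for H2-DMa and 2.12 for H2-DMb1 in naive hearts, with overlapping ranges. In sham hearts the level of H2-DMb1 was 4.17 CPM per kilobase, above H2-DMa at 3.22 in 5 of 5 libraries, as in 3 of 5 naive libraries. Ciita, the coactivator, had the lowest level of the 7 in all 10 libraries, with 0.729 CPM per kilobase in naive and 1.08 in sham hearts. Ratios between the genes within a library are free of scaling. Of the 21 pairs, none passed after adjustment over the pairs, but a single pair at the smallest exact p that 5 against 5 allows would have an adjusted p of 0.167, so no pair could pass alone. The smallest p was that of H2-DMb1 over Cd74, higher in sham hearts by 0.59 on the log2 scale (exact permutation p = 0.0159, adjusted p = 0.222).

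The remaining class II locus genes were near the limit of these libraries and none passed the filter on low counts. H2-DMb2, another DM beta chain, had 2 to 5 counts in naive and 5 to 22 in sham libraries. The H2-DO chains, which restrain H2-DM, had 0 to 5 counts for H2-Oa and 1 to 9 for H2-Ob in naive libraries, against 4 to 13 and 5 to 17 in sham libraries. In the fit without a filter, the log2 fold change was 1.66 ± 0.49 (SE) for H2-DMb2 (adjusted p 0.00615) and 2.11 ± 0.68 for H2-Oa (adjusted p 0.0173), while H2-Ob did not pass at 1.11 ± 0.52 (adjusted p 0.157). These calls rest on few counts. That edgeR fit also gave smaller adjusted p than the main fit for every class II gene but H2-Aa. For H2-Ab1 it was 2.86e-05 against 0.0337, and for H2-Aa 0.121 against 0.0895. Part of the H2-DMb1 sequence also occurs in H2-DMb2, as given above. H2-Eb2 had at most 4 counts in any library. H2-Ea-ps, the I-E alpha pseudogene, had at most 1 count in any library, which is under the floor of 3 counts.

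Of 11 factors that act at class II or Ciita promoters, 2 rose, none fell and 9 did not pass, with a median log2 fold change of 0.10. The ones that rose were Spi1, which encodes the myeloid factor PU.1 (16.3 ± 2.44 CPM naive, 59.7 ± 7.20 sham; log2 fold change 1.88 ± 0.12 SE, adjusted p 1.28e-08), and Irf8, a factor of monocytes and dendritic cells (12.7 ± 1.80 CPM naive, 29.9 ± 1.51 sham; 1.25 ± 0.11 SE, adjusted p 2.71e-07). In both, every sham library exceeded every naive library. The RFX subunits that bind the X box did not pass: Rfx5 had a log2 fold change of 0.33 ± 0.14 (adjusted p 0.0912), Rfxap -0.50 ± 0.32 (adjusted p 0.273) and Rfxank -0.03 ± 0.10 (adjusted p 0.823). Irf1, through which interferon gamma reaches a Ciita promoter, had a log2 fold change of 0.20 ± 0.09 (adjusted p 0.0969). Rfx5 came under the threshold with naive 2 left out (adjusted p 0.0311) and with sham 4 left out (0.0257). With libraries scaled by size alone, 6 of the 11 factors were called higher.

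Ifng, the gene for interferon gamma, had 3 counts over the 5 naive libraries and 3 over the 5 sham libraries and was not tested. Of 6 tested genes of interferon gamma signalling, 3 rose and 2 fell. The receptor chains moved in opposite directions, Ifngr1 from 38.5 ± 4.65 to 50.3 ± 4.81 CPM (log2 fold change 0.38 ± 0.10 SE, adjusted p 0.00677) and Ifngr2 from 209 ± 16.9 to 146 ± 9.53 CPM (-0.52 ± 0.08 SE). The kinase gene Jak1 fell (-0.33 ± 0.11 SE, adjusted p 0.0243), and the inhibitor gene Socs1 rose by 1.01 ± 0.16 on the log2 scale. The call of Jak1 did not hold without naive 4, naive 5, sham 2, sham 4 or sham 5 (adjusted p of 0.0501 to 0.0837), or with scaling by library size alone.

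Among interferon gamma responsive genes, 13 were tested: 5 of them rose and 1 fell, and the median log2 fold change was 0.42. The chemokine gene Cxcl10 rose from 0.774 ± 0.429 to 6.36 ± 3.76 CPM (log2 fold change 3.01 ± 0.42 SE). Genes of the class I pathway rose by less: the peptide transporter Tap1 by 0.83 ± 0.12, the immunoproteasome subunit Psmb8 by 0.68 ± 0.13 and the class I coactivator Nlrc5, a relative of Ciita, by 0.58 ± 0.16 (adjusted p 0.00995), each on the log2 scale with its SE. The guanylate binding protein gene Gbp4, named after its values were seen, fell by 0.59 ± 0.18 on the log2 scale (adjusted p 0.0191), but not past the threshold without naive 4, sham 2 or sham 4 (adjusted p of 0.0559 to 0.0581).

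Of 9 tested genes that process antigen and the invariant chain, 5 rose and none fell, with a median log2 fold change of 0.72. Cathepsin S, the protease that makes the last cut in the invariant chain, read 8.30 to 11.3 CPM in naive and 48.6 to 87.6 CPM in sham hearts as Ctss (log2 fold change 2.84 ± 0.14 SE). Ifi30, a thiol reductase that opens disulfide bonds of antigens, read 7.82 ± 1.05 and 39.9 ± 4.25 CPM (2.35 ± 0.11 SE). Lgmn, an endosomal asparaginyl endopeptidase, rose from 81.2 ± 2.91 to 178 ± 13.9 CPM, and Ctsz, a cathepsin, from 38.9 ± 4.78 to 108 ± 11.7 CPM. For these 4, the genes of smallest p in the list, every sham library lay above every naive library. That was the case for 6 of the 9 genes of the list and for 0 of the 7 class II genes, beside 13.6% of all genes.

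Of the ubiquitin ligases that remove class II from the cell surface, March1 rose from 0.753 ± 0.270 to 1.90 ± 0.670 CPM (log2 fold change 1.35 ± 0.32 SE, adjusted p 0.00413) and March8 fell from 49.1 ± 2.60 to 41.9 ± 3.20 CPM (-0.23 ± 0.08 SE, adjusted p 0.0360), a sign that turned when libraries were scaled by size alone (0.035). With any 1 library other than naive 1 left out, March8 did not pass (adjusted p of 0.0555 to 0.124). Among 4 tested co-stimulatory ligands and receptors of antigen presenting cells, 3 rose: Cd86 by a log2 fold change of 0.98 ± 0.34 (adjusted p 0.0386), Cd40 by 0.79 ± 0.24 (adjusted p 0.0202) and Icosl by 0.41 ± 0.11 (adjusted p 0.00933). Leaving out naive 2, naive 4, naive 5, sham 2, sham 4 or sham 5 took Cd86 over the threshold (adjusted p of 0.0528 to 0.133), and leaving out naive 3 or sham 3 did so for Cd40 (0.0541 and 0.0572). Of 4 tested genes of the T cell side, none passed, and Cd4, whose protein binds class II, read 1.11 to 2.27 CPM in naive and 1.65 to 2.35 CPM in sham hearts (adjusted p 0.648).

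**Figure D3:**
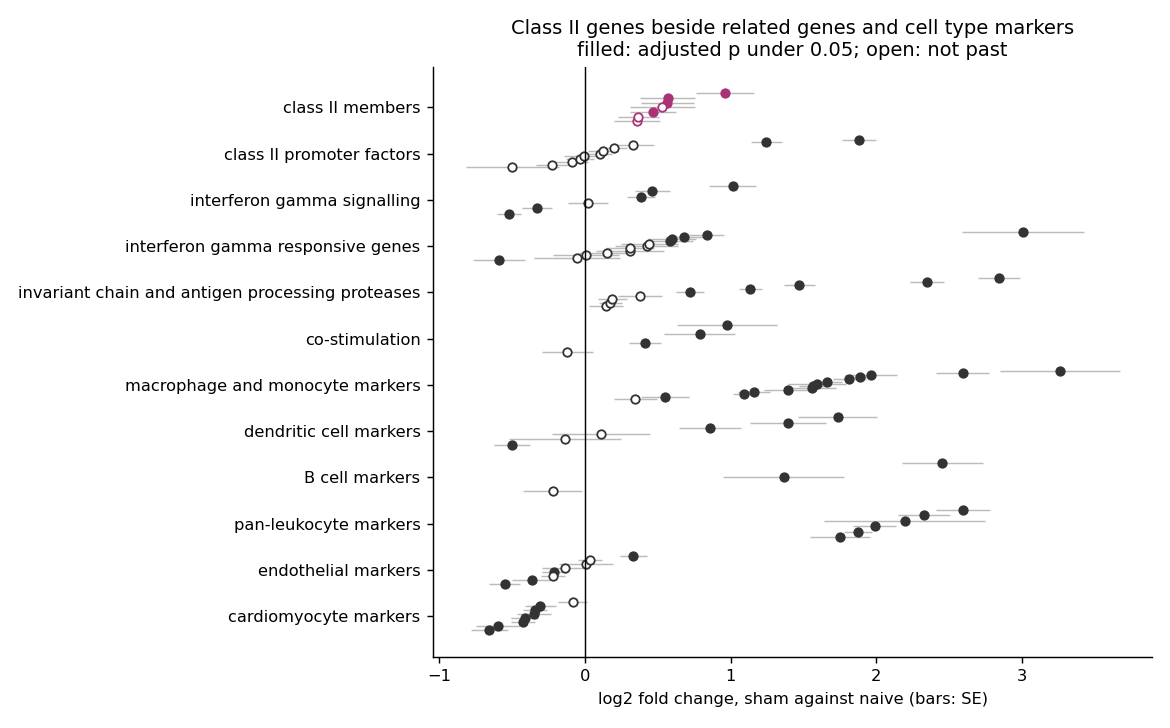
Log2 fold changes of sham against naive with SE for the class II genes (purple) and for the tested genes of related pathways and cell type markers (black); filled points passed an adjusted p of 0.05. The class II genes lie between 0.36 and 0.96, below most macrophage and pan-leukocyte markers.

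Macrophage, monocyte and pan-leukocyte markers were mostly higher in sham hearts too, with larger median log2 fold changes than the 0.53 of the class II genes. Of 14 tested macrophage and monocyte markers 13 rose, none fell, and their median log2 fold change was 1.58; the sum over all 15 listed was 459 to 554 CPM in naive and 1393 to 1716 CPM in sham hearts. C1qb, a complement chain of tissue macrophages, rose from 83.0 ± 9.97 to 306 ± 33.2 CPM, Cd68, a lysosomal protein, from 15.4 ± 1.67 to 54.0 ± 7.47 CPM, and Adgre1, which encodes F4/80, from 5.13 ± 1.68 to 15.6 ± 3.41 CPM. Ccr2, a receptor of recruited monocytes, rose from 0.357 ± 0.258 to 3.14 ± 0.740 CPM. All 6 pan-leukocyte markers rose, with a median log2 fold change of 2.09 and sums of 67.3 to 79.1 CPM in naive and 244 to 333 CPM in sham hearts; Ptprc, the CD45 gene, rose from 3.44 ± 0.969 to 11.8 ± 2.79 CPM.

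Dendritic and B cell markers were scarce. Of 11 dendritic cell markers 6 could be tested, of which 3 rose, Itgax (log2 fold change 1.74 ± 0.27 SE), Batf3 (1.39 ± 0.26) and Clec10a (0.86 ± 0.21), and 1 fell, Zbtb46 (-0.50 ± 0.12). Their sum was 27.2 to 40.1 CPM in naive and 29.8 to 34.8 CPM in sham hearts, most of it from Zbtb46 (26.2 ± 4.96 and 18.5 ± 1.57 CPM), which endothelial cells also express. Flt3, a receptor gene that marks dendritic cells, had 20 counts in all over the naive and 99 over the sham libraries. Of 10 B cell markers 3 could be tested and 2 rose, Cd22 (2.45 ± 0.28) and Cd79b (1.37 ± 0.41), while Cd79a, a chain of the B cell receptor, had 24 and 47 counts in all. Cd79b did not pass without naive 3 (adjusted p 0.0540) or sham 4 (adjusted p 0.0502). Sums of the B cell markers were 4.94 to 8.59 CPM in naive and 8.32 to 10.3 CPM in sham hearts, and no listed marker of either cell type was at 0 in all libraries. Of 8 T cell markers 2 could be tested and neither passed; their sums were 1.91 to 4.28 CPM in naive and 3.55 to 4.60 CPM in sham hearts.

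The tissue was rich in cardiomyocyte transcripts in both groups. Of 8 cardiomyocyte markers 7 fell, with a median log2 fold change of -0.38; Myh6, the main myosin heavy chain of the adult mouse ventricle, read 38652 ± 998 and 30509 ± 2147 CPM. With scaling by library size alone, 1 of these 8 markers was called lower and their median was -0.12. Of 8 endothelial markers 1 rose and 3 fell, among them the VEGF receptor gene Kdr (-0.55 ± 0.10 SE), and Pecam1 did not pass (-0.13 ± 0.16, adjusted p 0.569). Scaling by relative log expression or by the upper quartile left 1 endothelial marker called lower. With library size alone the endothelial median turned from -0.17 to 0.09. The part of these cell type markers in the class II differences was not tested.

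Set against macrophage and monocyte or pan-leukocyte marker counts of the same library, class II was lower in sham hearts. The 7 genes together gave 63.8 to 106 counts per 100 counts of the 15 macrophage and monocyte markers in naive hearts, with a mean of 85.6, and 30.1 to 42.6 in sham hearts, with a mean of 37.2. They gave 584 ± 101 against 198 ± 42.8 counts per 100 counts of the pan-leukocyte markers (SD, n = 5 each). Cd74 alone gave 38.7 to 62.8 counts per 100 macrophage marker counts in naive and 17.8 to 25.5 in sham hearts, 2.36-fold lower (exact two-sided permutation p = 0.00794, the smallest that 5 against 5 allows, adjusted p = 0.00926 over 14 ratios). H2-Aa was 2.18-fold lower, H2-Ab1 2.17-fold, H2-Eb1 2.40-fold, H2-DMa 1.99-fold and Ciita 2.07-fold, each with all 5 sham libraries below all 5 naive libraries and the same exact p. H2-DMb1 was 1.56-fold lower, from 0.365 to 0.775 counts per 100 in naive to 0.238 to 0.491 in sham hearts, with overlapping groups (exact p = 0.0397, adjusted p = 0.0397). Per pan-leukocyte count the 7 genes were 2.02-fold (H2-DMb1, exact p = 0.0159, adjusted p = 0.0171) to 3.10-fold (H2-Eb1) lower. These tests were added after the data were seen, and the 14 ratios share marker sums that did not overlap between the groups. Their p-values therefore give no support apart from the rise of the markers.

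**Figure D4:**
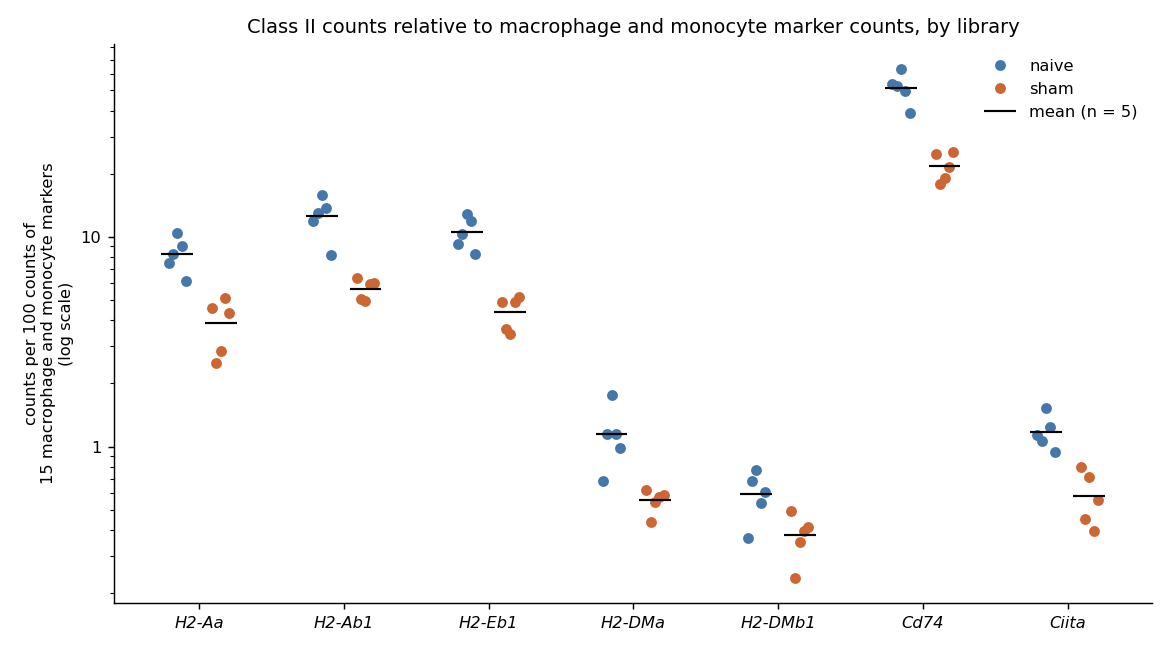
Counts of each class II gene per 100 counts of the 15 macrophage and monocyte markers in the same library, on a log axis, with single libraries as points and group means as bars (n = 5 each). For every gene but H2-DMb1 the sham libraries all lie below the naive libraries; Cd74 goes from 38.7 to 62.8 down to 17.8 to 25.5.

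These ratios depend on the marker taken. Per count of the dendritic cell markers, the 7 genes together gave more in sham hearts, 15.4 to 22.3 counts against 8.02 to 16.6 in naive hearts. Without Zbtb46, which fell and made up most of that sum, they gave 37.7 to 52.8 counts in sham and 36.8 to 77.1 in naive hearts. Per count of the B cell markers they gave 46.2 to 76.3 in sham and 35.7 to 97.5 in naive hearts. In these 3 ratios, which were set up after the data were seen and not tested, the groups overlapped. The macrophage sum is led by the C1q chains, the lysozyme gene Lyz2 and Csf1r, the gene of a macrophage growth factor receptor. Ccr2 was not used as a single denominator, as not every library had counts of it. With each of the other 13 tested markers alone as the denominator, the ratio of sham to naive means was under 1 for 12. It lay between 0.222 (Fcgr1) and 1.01 (Mertk), and all sham libraries lay below all naive ones for 8. With markers chosen after the values were seen, it was 0.626 for Csf1r, 0.843 for Cd163, a scavenger receptor of resident macrophages, and 1.01 for Mertk, an efferocytosis receptor. Mertk itself differed between the groups by a log2 fold change of 0.34 ± 0.15 (adjusted p 0.0883) and Cd163 by 0.55 ± 0.17 (adjusted p 0.0182). Mertk came under the threshold without naive 4, naive 5 or sham 4 (adjusted p of 0.0344 to 0.0478), and Cd163 missed it without naive 2 (adjusted p 0.0548).

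Across the 11648 tested genes with a mean of at least 1 on the log2 CPM scale, leaving out the class II genes themselves, the 8 whose values over the 10 libraries lay closest to the median class II profile were Mustn1, Rfc3, H2-D1, Map3k12, Rell1, Tspan17, Id3 and Ostf1. Likeness was the root mean square distance of log2 CPM after subtracting each gene's naive mean, 0.160 for Mustn1, a nuclear protein of muscle and bone, to 0.192 for Ostf1. H2-D1, a class I heavy chain gene of the same complex, lay at 0.186 and rose from 277 ± 42.1 to 413 ± 24.6 CPM (log2 fold change 0.57 ± 0.10 SE). None of the 8 belongs to a list of antigen presenting cell markers used here, but this distance also counts the size of a difference. The class II profile stood at 0.24 to 0.72 in sham libraries and the macrophage marker median at 1.44 to 1.76. Markers that rose that much could not rank as near, whatever the order of their libraries. H2-DMa (0.227), Ciita (0.272) and H2-DMb1 (0.400) themselves lay farther from the median class II profile than Ostf1.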

How the data were processed

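Non-strand-specific, single-end libraries of polyadenylated RNA were made from 5 naive and 5 sham-operated ventricles, per the labels' protocols. The submitters' processing notes name Bowtie2, TopHat2 2.1.1, TopHat, HTSeq, DESeq and edgeR with the GRCm38 build, without roles or order. The authors deposited raw read counts per gene, checked to be whole numbers, and a GC content column in percent deposited by the authors per gene, used only for a correction. The table has 41264 entries, of which 574 only repeat the counts of another entry of the same gene; 40690 genes remain once these are merged.

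Genes were filtered with filterByExpr (minimum count 10, minimum total 15), leaving 13622, and fitted with edgeR 4.0.16 (TMM, robust quasi-likelihood F test, group as the only term). Exact permutation tests over the 5 against 5 libraries used SciPy 1.17.1. On simulated counts for the same comparison, over 13508 genes, the fit recovered 55.2% of genes changed 1.5-fold, 74.6% of those changed 2-fold and 95.3% of those changed 4-fold, and 7 of 155 calls were false. Only 67, 67 and 64 tested genes were changed at these folds, up and down alike. In the data 17.2% of genes were called higher and 15.5% lower, so the simulated rates need not hold there. A floor of 3 counts covers counting error only. Exon lengths for the levels per kilobase were those of protein-coding transcripts in GENCODE M21. Promoter sequences came from RefSeq, and motifs were chosen after the sequences were seen.

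Alternatives included DESeq2 1.42.0, limma 3.58.1 (voom), other scalings and filters, a GC correction, a replicate block and each library left out. The class II genes and all lists were chosen with earlier results of these data known. Genes outside the class II set were named if they were among the 4 of smallest p in their list, were listed by name as relevant to class II, or were among the 8 nearest profiles; Jak1, Gbp4, Csf1r, Cd163, Mertk, Fcgr1 and Lyz2 fall outside this rule, and their naming followed a look at their values. The tests of ratios to marker counts and between class II genes were added after the data were seen. Gbp5 and Gbp6 were not analysed here. The p-values weigh the difference between the groups against the spread between these libraries.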

Additional observations from a re-analysis of the deposited data

Results flagged for a closer look

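Each of the following values stood apart from the other 4 libraries of its group by Dixon's criterion for 5 values (a gap above 0.71 of the range). Of 122 groups of 5 values examined, 7 did so, and chance gives about 1 in 20. No class II gene and no ratio of summed class II counts to marker counts was among them. Jak1 was low in sham 4 at 77.3 CPM, against 95.5 to 98.1 CPM in the other sham libraries. Socs1 was high in sham 3 at 13.9 CPM, against 8.89 to 10.2 CPM. Ctsz was low in sham 1 at 87.3 CPM, against 108 to 115 CPM. Cd40 was low in sham 1 at 1.73 CPM, against 4.15 to 4.76 CPM. Fcgr1 was high in naive 4 at 4.31 CPM, against 2.50 to 2.97 CPM in the other naive libraries. Zbtb46 was high in sham 5 at 21.2 CPM, against 17.2 to 18.3 CPM. Tspan17 was high in sham 4, at 0.68 above its naive mean on the log2 CPM scale, against 0.42 to 0.49.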

How the results depend on the processing

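Every class II gene kept a positive log2 fold change under all 23 alternatives, but its size moved by over 1.5 times for some. With limma voom it was 0.20 for H2-Aa, 0.30 for H2-Ab1, 0.18 for H2-Eb1, 0.33 for H2-DMa and 0.21 for Cd74. With library size alone it was 0.80 for H2-Aa, 0.74 for H2-Ab1, 0.63 for H2-Eb1 and 0.64 for Cd74, and the median of the 7 was 0.80. The number past the threshold moved: it was 4 as reported, 7 with scaling by library size alone, 2 with a GC correction, 2 without naive 1 and sham 4, 2 with limma voom and sample weights, and 1 to 6 with each library left out in turn. H2-DMb1 passed in 23 of 23 alternatives, Ciita in 19, H2-DMa in 15, H2-Ab1 in 13, Cd74 in 9, H2-Aa in 4 and H2-Eb1 in 3. Scaling by library size alone shifted the median of all genes by 0.26 on the log2 scale and gave 4473 genes higher and 283 lower, so that 94.0% of calls were higher against 52.6% with TMM. limma voom called 3243 genes lower. With library size alone the sign turned for Rfxank (0.23), March8 (0.035) and Pecam1 (0.13). With each library left out in turn, the log2 fold change of Cd4 ran from -0.0065 (without naive 2) to 0.27, and that of Rfxank from -0.0692 to 0.014 (without sham 1; 0.011 without sham 2). The cause of these changes was not tested. The ratio of sham to naive class II counts per macrophage marker count was 0.408 to 0.462 with each library left out, and 0.626, 0.843 and 1.01 with Csf1r, Cd163 or Mertk alone as the denominator. It was 1.37 with the dendritic cell markers, 0.723 with these less Zbtb46 and 0.827 with the B cell markers, all alternatives chosen after the data were seen.

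With the replicate number as a block 3 class II genes passed, and 2592 genes were higher and 2801 lower; H2-Ab1 did not pass (adjusted p 0.0643). Deviations of same-numbered libraries correlated across genes by 0.227, 0.0350, 0.00801, 0.293 and 0.292, so the numbers were not taken to pair the hearts, and only numbers 1, 4 and 5 matched their own number best. The depth of these libraries leaves the H2-DO genes and Ifng near the floor.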
